A study of Homo sapiens with 6 samples.

Results

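Binding of N-Myc and JMJD6 was examined at 10 regulators that mark the mesenchymal state of neuroblastoma: PRRX1, FOSL1, FOSL2, TWIST1, SNAI2, YAP1, WWTR1, NOTCH2, MAML2 and RUNX1. They were chosen by name from what is known of that state, with earlier results of these data known. They are 10 of the 19220 autosomal protein-coding genes in the annotation. A gene was counted as listed where a deposited promoter, typical enhancer or super-enhancer list named it. By that rule 3 of the 10 were listed, all for N-Myc: FOSL2 with 1 promoter, TWIST1 with 1 promoter and 3 super-enhancers, and MAML2 with 1 typical enhancer. The other 7 were not listed, and no gene of the 10 was listed for JMJD6 or for regions bound by both proteins.

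The study mapped both proteins by chromatin immunoprecipitation and sequencing (ChIP-seq) in CHP-134, a human neuroblastoma cell line derived from a peripheral nervous system tumour and described in the series title as NMYC overexpressing. The 6 samples were 3 replicates with an N-Myc antibody and 3 with a JMJD6 antibody, all from the same line with no drug or genetic treatment named, and nothing in the labels says whether the replicates were separate cultures. Chromatin was cross-linked with formaldehyde alone for N-Myc and with DSG followed by formaldehyde for JMJD6, so the protein and the protocol cannot be told apart. The 12 lists held positions only, of which the peaks common to the 3 replicates numbered 10172 for N-Myc and 561 for JMJD6, and neither depth nor spread between replicates could be read from them.

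Neuroblastoma cells occur in an adrenergic state, held by factors such as HAND2 and GATA3, and in a mesenchymal state that resembles neural crest and is known for migration and for resistance to chemotherapy. In the mesenchymal state PRRX1, TWIST1 and SNAI2 control programmes of epithelial to mesenchymal transition, FOSL1 and FOSL2 are Fos-family subunits of the AP-1 factor, YAP1 and WWTR1 (TAZ) are the coactivators held back by Hippo signalling, NOTCH2 is a receptor whose signal MAML2 coactivates in the nucleus, and RUNX1 is a DNA-binding factor that pairs with CBFB. N-Myc binds as a dimer with MAX to E-boxes, of which CACGTG is the canonical form. JMJD6 is an oxygenase of the Jumonji family that is known to act on chromatin. The lists carry no expression value, so the state of these cells was not measured.

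E-boxes inside the common N-Myc peaks at these genes are shown in capitals on GRCh37, since an E-box is the sequence N-Myc is known to bind. Whether N-Myc was held by these sites was not tested. The canonical form CACGTG reads the same on both strands. The CG-centred form, CACGCG, reads CGCGTG on the other strand, and the TG-centred form, CATGTG, reads CACATG there. In the TWIST1 super-enhancers and upstream of the TWIST1 start, 5 peaks held a CACGTG, and 4 of these sites are shown with their surroundings and the distance of the peak centre from the start.
TWIST1, far super-enhancer, 257 kb downstream, chr7:18899789-18899848 (plus strand): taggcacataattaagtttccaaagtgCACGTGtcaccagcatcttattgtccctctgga
TWIST1, near super-enhancer, 9.43 kb downstream, chr7:19147630-19147689 (plus strand): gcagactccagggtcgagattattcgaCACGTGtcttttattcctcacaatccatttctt
TWIST1, near super-enhancer, 5.80 kb downstream, chr7:19151629-19151688 (plus strand): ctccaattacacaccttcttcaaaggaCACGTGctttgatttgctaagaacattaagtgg
TWIST1, 1.52 kb upstream, chr7:19158803-19158862 (plus strand): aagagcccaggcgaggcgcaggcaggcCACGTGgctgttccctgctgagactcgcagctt

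The peaks at the PRRX1 and FOSL2 starts and at the MAML2 enhancer are shown over the stretch that holds their E-boxes. The PRRX1 peak upstream held 1 canonical and 2 CG-centred sites, the FOSL2 peak upstream held 2 CG-centred sites, and the MAML2 peak held 1 site of the CG-centred and 1 of the TG-centred form. The FOSL2 promoter peak held 1 TG-centred site, upstream of both the canonical and the listed FOSL2 start. The stretch shown around it overlapped untranslated sequence of an annotated transcript. A further PRRX1 peak, in an exon with untranslated sequence 64 kb past the start, held 1 CACGTG.
PRRX1, 1.75 kb upstream, chr1:170630532-170630689 (plus strand): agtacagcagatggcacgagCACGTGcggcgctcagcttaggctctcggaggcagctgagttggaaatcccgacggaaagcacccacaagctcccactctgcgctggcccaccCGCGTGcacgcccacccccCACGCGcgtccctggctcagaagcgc
PRRX1, 64 kb downstream, chr1:170697275-170697304 (plus strand): ccagatggctgcCACGTGgtccttaccagt
FOSL2, 2.19 kb upstream, chr2:28613525-28613661 (plus strand): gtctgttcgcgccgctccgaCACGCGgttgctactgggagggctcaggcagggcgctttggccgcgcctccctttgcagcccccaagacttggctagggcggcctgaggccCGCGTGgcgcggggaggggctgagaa
FOSL2, promoter, chr2:28615662-28615691 (plus strand): cgtgagtgaatcCACATGgtacagggctgg
MAML2, intronic enhancer, chr11:95976618-95976785 (plus strand): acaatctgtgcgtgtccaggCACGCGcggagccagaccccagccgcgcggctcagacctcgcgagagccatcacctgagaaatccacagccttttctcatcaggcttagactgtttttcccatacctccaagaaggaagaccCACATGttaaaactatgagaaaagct

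The narrow N-Myc peak over the TWIST1 start held none of these E-boxes and no other CANNTG. Its 90 bp upstream of the start are shown in the direction of TWIST1 transcription, with no capitals because no motif was found.
TWIST1, promoter, chr7:19157296-19157385 (minus strand): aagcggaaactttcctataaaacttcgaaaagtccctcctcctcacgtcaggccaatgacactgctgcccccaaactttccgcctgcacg

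Over all members, 2 of 10 had an N-Myc promoter, beside 18.3% of the autosomal coding genes, and 1 of 10 had a typical enhancer, beside 32.7%. For super-enhancers it was 1 of 10 beside 1.36%, and for any N-Myc list 3 of 10 beside 38.1%. No member was named for JMJD6, where 1.33% of genes were named. The members' share for promoters and for any list was near that of all genes, and with 10 genes a single listing moves it by 10 percentage points. TWIST1 was the only member with a super-enhancer. No test was made of these shares.

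**Figure D1:**
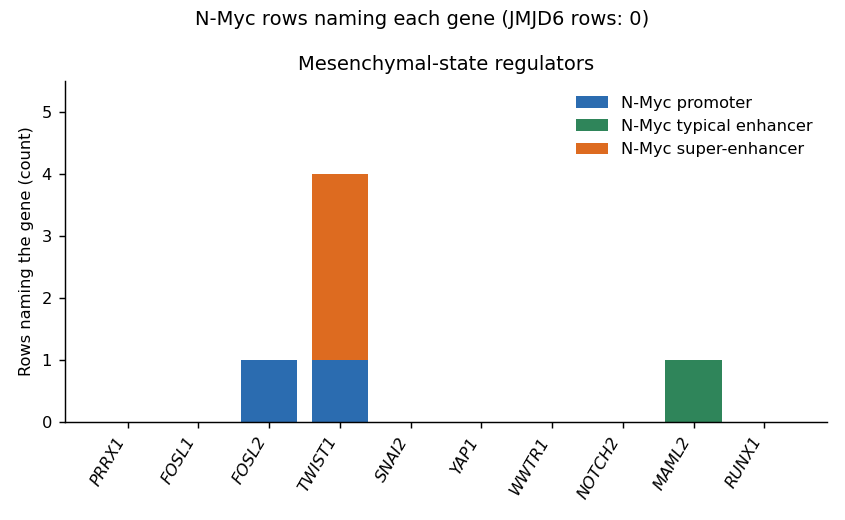
Number of N-Myc regions naming each gene (vertical axis, count), for the 10 mesenchymal-state regulators, coloured by class of region. TWIST1 has 4 regions, FOSL2 and MAML2 have 1 each, and 7 regulators have none.

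TWIST1, a basic helix-loop-helix factor of mesoderm and neural crest, held 10 of the 12 distinct N-Myc peaks in the members' regions. Its promoter region, chr7:19156295-19158295, contained 1 peak of 211 bp at chr7:19157175-19157385, which covered the start and overlapped the 5′ untranslated part of the exon. Of 3550 N-Myc peaks in promoter regions, 20 (0.563%) were as narrow, and the median width was 452 bp. The promoter peak was the narrowest of the 10 peaks at TWIST1, and the widest was 1299 bp.

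All 3 TWIST1 super-enhancers were also assigned to HDAC9, a class IIa histone deacetylase that lies downstream of TWIST1. The near one, chr7:19145396-19160871, was 15.5 kb long, covered the TWIST1 start and held 5 peaks, which took up 14.4% of it. The 3 of these peaks downstream of the start lay in the intron of a long annotated TWIST1 transcript. Another, chr7:18883938-18902572, was 18.6 kb long with its centre 264040 bp downstream of the start, and held 3 peaks over 7.39% of its length. The last, chr7:18855309-18870943, was 15.6 kb long with its centre 294169 bp downstream, and held 2 peaks over 11.3%. These 2 lay inside HDAC9, 13.0 kb apart and with their peaks in its introns, and the gap of 243 kb between them and the near one held no N-Myc peak. Over the whole span of 306 kb, all 10 N-Myc peaks fell inside the 3 super-enhancers and no JMJD6 peak was present.

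The near super-enhancer was dense in N-Myc peaks. It held 3.23 peaks per 10 kb, against a median of 0.674 over the 162 N-Myc super-enhancers. Of these, 4 super-enhancers, itself included, were at least as dense. Common peaks per super-enhancer ran from 0 to 10, so a listed region did not always hold a common peak. The far pair held 1.28 and 1.61 peaks per 10 kb, a density reached by 31 and 20 of the 162. All 3 were short: the median super-enhancer was 28.4 kb long. Of the 265 genes named in the super-enhancer list, 236 were named once and 10 at least 3 times. TWIST1 was among those 10 together with HDAC9, MYCN and HAND2. The paper gives MYCN as amplified in this line, and copy number was not accounted for in these counts. The assignment by distance gives the same 3 regions to both TWIST1 and HDAC9, so the lists cannot tell which of the genes each region serves.

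**Figure D2:**
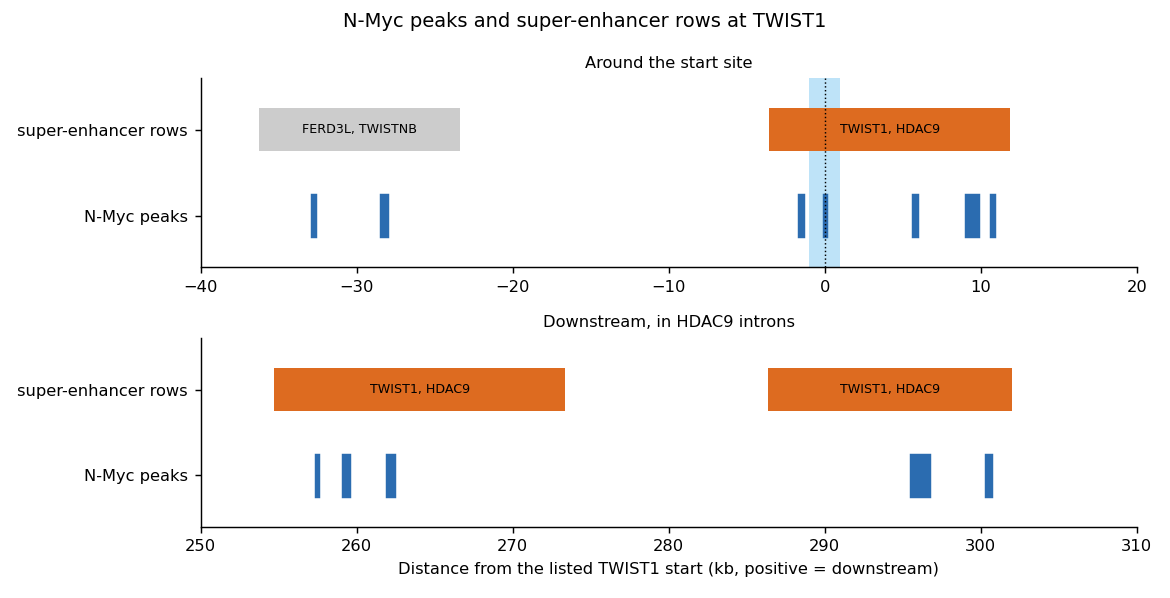
Map of the TWIST1 region drawn to scale, with distance from the listed TWIST1 start in kb on the horizontal axis and upstream on the left. Orange bars are the 3 super-enhancers assigned to TWIST1 and HDAC9, the grey bar is a super-enhancer assigned to FERD3L and TWISTNB, blue bars are common N-Myc peaks, and the pale band is 1 kb on each side of the start. The peaks form a near group of 5 and a far group of 5, with 2 more in the grey region.

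A further super-enhancer of 12.9 kb, chr7:19180705-19193561, began 23.4 kb upstream of the TWIST1 start with 2 N-Myc peaks, and was assigned to FERD3L and TWISTNB instead. With it, 7 N-Myc peaks lay within 100 kb of the TWIST1 start, a number reached by 2.90% of coding genes, where the median gene had 1. The peak 1516 bp upstream of the start, chr7:19158596-19159027, was 432 bp wide and held the last of the CACGTG sites shown for TWIST1. It fell in the super-enhancer and outside the promoter region.

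FOSL2, an AP-1 subunit of the Fos family, had a promoter region at chr2:28614778-28616778 that contained a single N-Myc peak of 254 bp, chr2:28615572-28615825. The peak covered an annotated FOSL2 start and coding sequence of the exon, as well as an intron of the antisense gene FOSL2-AS1. Of the promoter peaks, 185 (5.21%) were as narrow. A wider N-Myc peak of 368 bp, chr2:28613402-28613769, was centred 2193 bp upstream of the listed start in an intron of FOSL2-AS1 and belonged to no listed region. The promoter peak held an AP-1 motif and a TG-centred E-box but no canonical one, and the upstream peak held the pair of CG-centred sites shown.

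MAML2, a coactivator of the Notch transcription complex, was listed through a typical enhancer in its own intron, chr11:95975982-95976929, which was also assigned to MTMR2, a lipid phosphatase gene. The enhancer was 948 bp long, and 12.6% of the 4649 N-Myc typical enhancers were as short, with a median of 2553 bp. Its centre lay 99.9 kb from the MAML2 start and 319 kb from that of MTMR2. The nearer assigned gene was at or within that distance for 80.7% of the enhancers with a listed distance, and the median was 5.13 kb. A single N-Myc peak of 385 bp, chr11:95976433-95976817, took up 40.6% of the enhancer. It was the only common N-Myc peak within 100 kb of the MAML2 start.

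PRRX1 and SNAI2 had an N-Myc peak just outside the promoter window of 1 kb. Neither was named by a promoter, typical enhancer or super-enhancer. PRRX1, a homeobox factor of mesenchyme, had a peak of 304 bp at chr1:170630377-170630680, whose edge lay 1595 bp upstream of the nearest coding start. It overlapped no annotated gene and no listed region. SNAI2 (Slug), a zinc finger repressor of epithelial genes, had a peak of 616 bp at chr8:49835843-49836458, with its edge 1544 bp upstream of the nearest start, which also lay between genes and in no listed region. Of all N-Myc peaks, 80.8% were no wider. In both genes the nearest start was not the canonical one, from which the PRRX1 peak lay 2.59 kb and the SNAI2 peak 1.85 kb away.

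**Figure D3:**
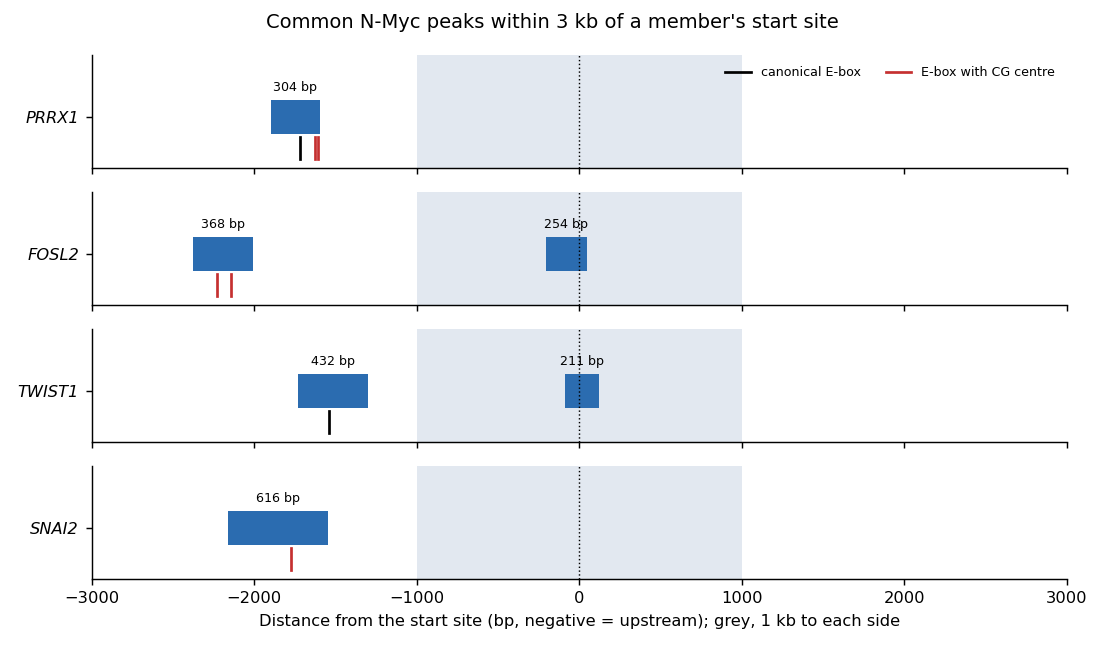
Common N-Myc peaks (blue bars, with width in bp) within 3 kb of the start site of PRRX1, FOSL2, TWIST1 and SNAI2, with distance from the start in bp on the horizontal axis, upstream on the left. Grey marks the 1 kb window, black ticks canonical and red ticks CG-centred E-boxes, and each gene has a peak 1.52 to 2.19 kb upstream of its listed (FOSL2, TWIST1) or nearest coding start (PRRX1, SNAI2) while FOSL2 and TWIST1 also have one over the start.

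PRRX1, FOSL2, TWIST1 and SNAI2 each had an N-Myc peak centred between 1516 and 2193 bp upstream of a start, taken from the listed promoter for FOSL2 and TWIST1 and from the nearest annotated coding start for PRRX1 (1747 bp) and SNAI2 (1851 bp). A peak centred between 1 and 2.5 kb upstream of a coding start was found for 849 of 18884 coding genes (4.50%), and that range was set after the peaks were seen. From the canonical starts the peaks were centred 2.74 kb upstream for PRRX1, outside that range, 2.14 kb for FOSL2, 1.55 kb for TWIST1 and 2.16 kb for SNAI2, and the share of coding genes was 1.67%. The 4 upstream peaks had a GC content of 58.7% to 64.3% and 17 to 22 CpG sites in their central 300 bp, where the median of all N-Myc peaks was 53.7% and 8 sites. In the central 300 bp, a CG-centred E-box, found in 12.3% of N-Myc peaks, was in the PRRX1, FOSL2 and SNAI2 peaks and not in that of TWIST1. A canonical one, found in 27.9%, was in the PRRX1 and TWIST1 peaks and not in those of FOSL2 and SNAI2. These peaks were picked by position after they were seen and had more CpG sites than the median peak. The shares of all peaks are therefore no matched comparison, and a shared motif was not tested.

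Widening the window therefore changed the count of members. With any annotated coding start, 2 of 10 members had an N-Myc peak within 1 kb, beside 20.3% of coding genes. Within 2 kb it was 4 of 10 beside 21.6%, and within 5 kb it was 4 of 10 beside 24.6%. From the canonical start alone, 3 of 10 had a peak within 2 kb, beside 19.6%. Genes with a peak between 1 and 2 kb and none nearer made up 250 of 18884 (1.32%), and PRRX1 and SNAI2 were among them by their nearest start.

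The 5 remaining members and MAML2 had no N-Myc peak within 5 kb of a start. FOSL1, the other Fos-family subunit, was 60.9 kb from the nearest one, which lay at the promoter of SART1, a splicing factor gene. For WWTR1 the distance was 49.3 kb, to the promoter of COMMD2. NOTCH2 lay 195 kb from a peak at the promoter of FAM72B, and YAP1 lay 905 kb from a peak at the promoter of DCUN1D5. YAP1 was the farthest of the 10, and 2.09% of coding genes were as far from N-Myc. RUNX1 was 23.9 kb from a peak when its most distal annotated start was counted, but 674 kb from one when its canonical start was used, and for WWTR1 the canonical start gave 94.5 kb. The order from the nearest was TWIST1 and FOSL2 at 0 kb, SNAI2, PRRX1, RUNX1, WWTR1, FOSL1, MAML2, NOTCH2 and YAP1. From the canonical starts FOSL1 came before WWTR1, and RUNX1 came after NOTCH2 (226 kb) and before YAP1 (928 kb). No replicate spread could be given for these distances.

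**Figure D4:**
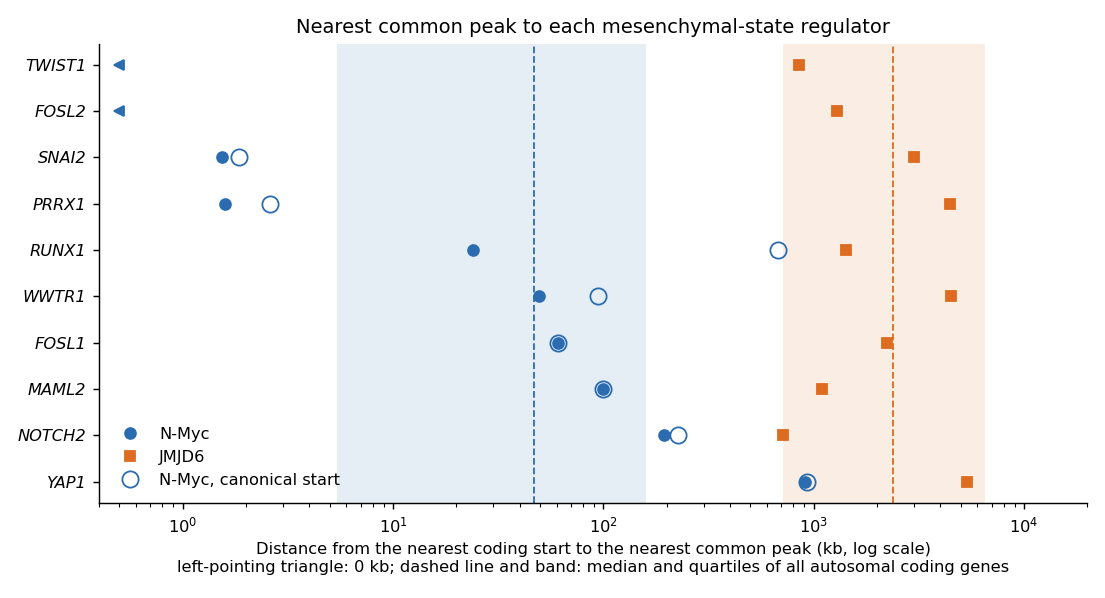
Distance in kb, on a log axis, from the nearest coding start of each regulator to the nearest common N-Myc peak (filled blue) and JMJD6 peak (orange), and from its canonical start to the nearest N-Myc peak (open blue), with the median (dashed) and quartiles (band) of all autosomal coding genes. The N-Myc distances from the nearest start run from 0 to 905 kb around a gene median of 46.8 kb, and every JMJD6 distance is at or above 714 kb.

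The median distance of the members to an N-Myc peak was 36.6 kb, and that of coding genes was 46.8 kb with quartiles of 5.42 and 159 kb. These distances take the nearest annotated coding start of each gene. From the canonical start alone the members had a median of 77.8 kb and 18635 coding genes one of 54.0 kb, so which of the medians was the smaller depended on the start. JMJD6 was far from all 10 members, between 714 kb for NOTCH2 and 5379 kb for YAP1, with a median of 1831 kb beside 2375 kb for coding genes. No JMJD6 peak lay within 100 kb of any member, where 5.79% of coding genes had one. None of the peaks at the members overlapped a JMJD6 peak. Peaks common to both proteins numbered 241 in all, beside 10172 N-Myc peaks. With 561 common JMJD6 peaks in all, distances of this size were found at most genes.

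Uniqueness of the promoter sequence was measured in the reference, without reads. Of the 1927 75-mers in the 2001 bp around the canonical start, all occurred once in the genome for 9 members. For NOTCH2 it was 869 (45.1%), and the part of sequence uniqueness in which members were listed was not tested.

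No member had both a CACGTG and an N-Myc peak within 1 kb of the canonical start. With the peak counted within 1 kb of any coding start, 1744 of 18884 coding genes had both. The upstream PRRX1 and TWIST1 peaks held a CACGTG but lay outside this window. Within 1 kb of the canonical start, FOSL1, SNAI2 and YAP1 each had 1 CACGTG and no N-Myc peak in the same window, while FOSL2 and TWIST1 had a peak and no CACGTG. Over coding genes a CACGTG was present within 1 kb of 29.2% of starts, taking the canonical start where one was annotated. The genes were then grouped by an N-Myc peak within 1 kb of any annotated coding start. A CACGTG was present for 45.5% of those with such a peak and for 3767 of the 15051 without one. Of the 12 peaks in the members' regions, 10 lay at TWIST1, so their shares describe mainly that gene. In the central 300 bp, 3 of the 12 held the canonical E-box, all at TWIST1, beside 27.9% of all N-Myc peaks. The TG-centred form was in 3 beside 34.3%, and the CG-centred form in 1 (8.33%) beside 12.3%. Over the whole width, 5 of the 12 (41.7%) held CACGTG, beside 33.4% of all N-Myc peaks. Any CANNTG was found in 10 (83.3%) beside 87.8%.

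Motifs of the members' own families were searched in the same peaks, in the central 300 bp and over the whole width. In the central 300 bp the AP-1 motif TGANTCA was in 2 of 12 (16.7%), one of them at the FOSL2 promoter, beside 8.45% of all N-Myc peaks. The TEAD motif GGAATG, read by the partners of YAP1 and WWTR1, was in 0 of 12 there beside 16.5%, and the RUNX motif TGTGGT in 1 (8.33%) beside 17.6%. Over the whole width, the TEAD motif was in 4 of 12 (33.3%) beside 23.7% of all N-Myc peaks, the RUNX motif in 2 (16.7%) beside 25.2%, and the AP-1 motif in 2 (16.7%) beside 12.4%. All TEAD and RUNX motifs found in the 12 peaks were at TWIST1, which held 10 of them. The 12 peaks had a median width of 408 bp, beside 418 bp for all N-Myc peaks, and a median GC content of 53.4% beside 53.7%.

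Related genes were counted in the same way. Of 101 distinct genes in 7 lists of partners, pathway genes, other mesenchymal-state factors and effectors, 51 (50.5%) had an N-Myc region, beside 38.1% of coding genes, but 16 (15.8%) had a promoter, beside 18.3%. The lists were described by counts and not tested. Of 9 further AP-1 subunits, 5 were named, among them JUN with 3 regions and ATF3 with 2, while FOS, JUNB and JUND had 1 each. FOS was also named by 1 typical enhancer in the JMJD6 list, and whether it is the same region was not checked. Of 10 other transcription factors of epithelial to mesenchymal transition, 7 were named, with 7 regions for ZEB1, 5 for SNAI1 and 3 for SOX9, and TCF4 and SOX9 each had a super-enhancer.

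In the Hippo pathway, 8 of 19 genes were named, with 5 regions for VGLL4, a TEAD cofactor, and 3 for TEAD1, the DNA-binding partner of YAP1. In the Notch pathway, 7 of 18 were named, with 9 regions for MAML3, the paralogue of MAML2, of which 1 was a super-enhancer, 4 for RBPJ, the DNA-binding factor of the pathway, and 3 for its target HES1. Of 6 RUNX relatives and partners, 3 were named, and RUNX1T1, the corepressor known as ETO, had 11 regions, of which 3 were promoters, 6 typical enhancers and 2 super-enhancers. Relatives of the members differed: MAML2 had 1 region, MAML3 9 and MAML1 0, and RUNX1 and RUNX3 had 0 and RUNX2 2. CBFB, the partner of RUNX1, had 0. Of 24 other mesenchymal-state factors, 11 were named, with at most 3 regions each, for DCAF6, ID1 and SIX4.

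Of 15 mesenchymal effector genes, 10 (66.7%) were named, beside 38.1% of coding genes. The integrin subunit gene ITGB1 had 4 regions, and the collagen genes COL1A1 and COL3A1 had 2 each, with a super-enhancer for COL3A1. LGALS1, which encodes galectin-1, was the other gene of these lists named for JMJD6. It had 1 typical enhancer for N-Myc and 1 for JMJD6, and their positions were not compared. By comparison, 8 of 10 adrenergic factors were named, with 19 regions in all against 6 for the members, and super-enhancers were assigned to HAND2 (4) and GATA3 (1) among others. HAND1 and TFAP2B were not listed. Promoters were listed for 1 of 10 adrenergic factors and 2 of 10 members. The adrenergic factors had a median distance of 45.3 kb to the nearest N-Myc peak, beside 36.6 kb for the members, with ranges of 0.454 to 614 kb and 0 to 905 kb. From the canonical start the medians were 45.3 kb and 77.8 kb, in the opposite order.

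**Figure D5:**
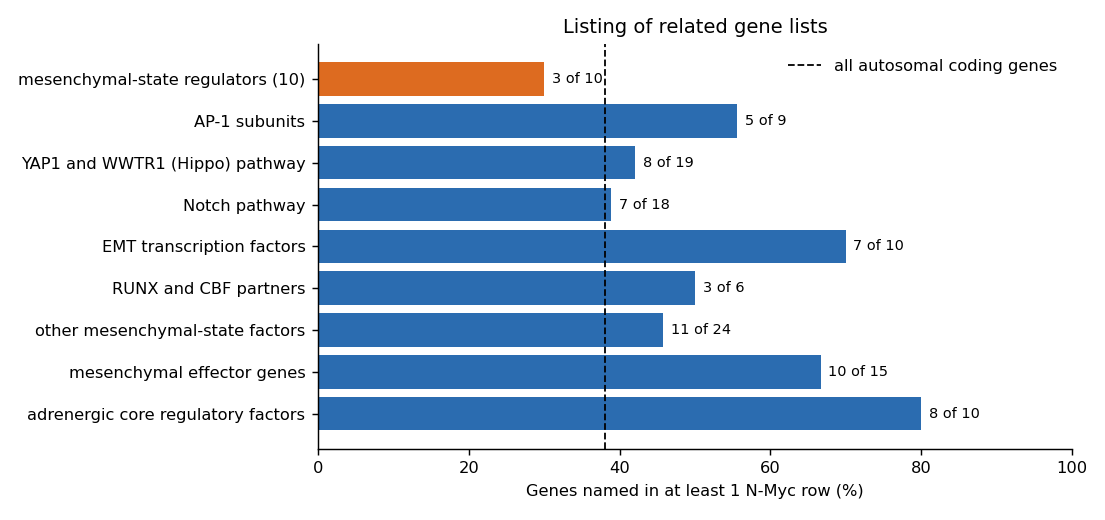
Percentage of genes with at least 1 N-Myc region (horizontal axis) for the 10 mesenchymal-state regulators (orange) and 8 related lists (blue), with the number of genes beside each bar and the share of all autosomal coding genes as a dashed line. The regulators, at 3 of 10, end left of the line at 38.1%, and the adrenergic factors, at 8 of 10, end to the right of it.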

How the data were processed

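The 6 ChIP-seq samples (3 N-Myc, 3 JMJD6) were represented by 12 deposited lists. Per the labels and the methods of the study, the authors aligned reads to hg19 with BWA and called peaks with MACS2 (version 2.1.1.20160309 in the submitters' notes) with its threshold on the q-value, and kept peaks present in all 3 replicates of a protein. Promoters were 1 kb on each side of RefSeq starts, enhancers and super-enhancers came from ROSE on H3K27ac, and GREAT assigned up to 2 genes to each. The deposited values are positions in bp, with no score, count or depth, so no stricter threshold, replicate spread or test could be computed, and all results are counts and distances.

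Symbols were matched exactly, with older symbols through the annotation tables (95.3% of 4150 N-Myc promoter symbols, 99.3% of 6486 enhancer symbols and 100% of 265 super-enhancer symbols). The build was checked against GRCh37 with GENCODE lifted to it: 4299 of 4889 promoter centres (87.9%) lay within 100 bp of an annotated start. Positions are printed 1-based. A peak overlapped a region by at least 1 bp, and distances run from a peak's edge to the nearest coding start. A gene's share of coding genes was taken over 18884 with such a start. Motifs were searched on both strands of 300 bp centred on a peak. Sequences came from the reference genome. Python 3.11.15, numpy 2.4.6, pysam 0.24.0 and matplotlib 3.10.9 were used, and overlaps, nearest peaks, motifs and 75-mers were tested on simulated data, overlaps against bedtools 2.31.1. The members, the pathway lists and the measures were chosen with earlier results of these data known. All members were named, with the other gene in their regions, and from each list the genes with a JMJD6 region or super-enhancer and the 3 with the most N-Myc regions. Close relatives of MAML2 and RUNX1 were named as well. Some items are not reported here. The alternatives were other overlaps, windows and gene sets, canonical starts, wide peaks alone and TWIST1 left out.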

Additional observations from a re-analysis of the deposited data

How the results depend on the processing

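Of 30 alternatives to 11 results, 18 kept the value within 1.5 times and 12 moved it. The members with a typical enhancer and their enhancer regions count as separate results here, but both rest on the same MAML2 enhancer. With super-enhancers limited to 100 kb from the start, the members with one stayed at 1, though the TWIST1 super-enhancers at 264 and 294 kb dropped out. With peaks at least as wide as the median, the members with a promoter went from 2 to 0, those with a typical enhancer from 1 to 0, their enhancer regions from 1 to 0, and the distinct peaks from 12 to 6, because the FOSL2, TWIST1 and MAML2 peaks concerned were narrower than the median. With a window of 2 kb or 5 kb, chosen after seeing the data, the promoter count was 4 and 4. Without TWIST1, also chosen after seeing the data, 2 of the 12 distinct peaks were left. Over the whole peak, CACGTG was in 5 peaks in place of 3, and, added after seeing the data, the TEAD motif in 4 in place of 0 and the RUNX motif in 2 in place of 1. With the canonical start, also added then, the median distance of the members to N-Myc was 77.8 kb in place of 36.6 kb. The share of genes with an N-Myc promoter was 6.67% in place of 18.3% over all annotated genes. The lists gave no depth, so a member not listed was not shown to be unbound. No paired analysis was possible because the lists have no column per sample, and for the same reason no replicate could be left out.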
